A study of Mus musculus with 8 samples.

Results

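The 10 genes described here encode transcription factors that establish and hold T lineage identity: Bcl11b, Tcf7, Lef1, Gata3, Runx1, Runx3, Ets1, Tcf12, Zbtb7b and Myb. They were taken by name from a table of 23997 genes, and all 10 were present. RNA sequencing measured them in Treg (regulatory T) cells, which are CD4 T cells that restrain immune responses and are defined by the transcription factor Foxp3. Per the labels, cells were sorted as CD4+YFP+ from spleen and draining lymph nodes of C57BL/6 mice. Bcl11b-deficient cells had the genotype Bcl11b f/f Foxp3-YFP-Cre/+ and Bcl11b-sufficient cells the genotype Bcl11b f/+ Foxp3-YFP-Cre/+, with 4 libraries listed for each. All animals thus carried 1 Foxp3-YFP-Cre allele and at least 1 floxed (f) Bcl11b copy, so the sufficient cells also lost 1 copy wherever Cre had acted. Cre is driven by Foxp3, after T cells have formed, so the comparison bears on Bcl11b in existing Treg cells and not on T cell commitment in the thymus. Foxp3 lies on the X chromosome, and the animals are heterozygous, so they also hold Treg cells that use the other Foxp3 allele, express no Cre and were not sorted. The sources used here give neither age nor the number of animals.

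In thymic progenitors, Notch signals induce TCF-1 (the product of Tcf7) and GATA3, which act with RUNX1 to switch on Bcl11b, a zinc finger protein that then closes off other fates such as natural killer (NK) and myeloid development. ETS1, MYB and the E protein HEB (Tcf12) support T cell receptor gene assembly and the passage through the thymus, and LEF-1 overlaps with TCF-1. At the CD4 and CD8 split, ThPOK (Zbtb7b) sets the CD4 fate and RUNX3 the CD8 fate, and each opposes the other.

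The values are FPKM, fragments scaled to transcript length and library size, which are levels per length and can be compared between genes. The 8 deposited columns were not counted as 8 independent libraries. The columns of deficient replicates 1 and 3 differed from each other, as did those of deficient 2 and 4 and of sufficient 1 and 3, by 0.989 to 1.21 times the sampling noise of their reads, while the 9 other pairs within a group differed by 1.71 to 2.89 times. Pairs within 1.5 times the sampling noise were treated as 1 sample by their mean. That leaves 2 deficient and 3 sufficient libraries, and every mean ± SD below has n = 2 and n = 3. For the 10 genes the averaged columns differed by a median of 3.40% and at most by 16.6%, a difference seen for Runx3 in sufficient replicates 1 and 3. Approximate depth was 2520000 to 11130000 fragments per column. Sufficient replicate 4 stands apart, with the small RNA gene Snora61 at 31182.5 FPKM and at 0 in every other column. Its total was also the highest, at 613276 FPKM, against 474416 to 566073 FPKM in the other columns. Depth was read from the steps of low values. Ratios of low values to deficient replicate 1 lay on such steps for 15.5% in sufficient replicate 4, against 44.0% to 68.7% in the rest. Its depth is thus less certain. The labels do not say whether libraries are from different animals, and p-values here rest on the spread of these libraries alone, which may be technical.

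The labelled cell type was checked on its defining genes. Foxp3 measured 153 ± 0.517 FPKM (deficient) against 187 ± 18.8 FPKM (sufficient), while of the CD8 chains Cd8a was under 1 FPKM in every library and Cd8b1 measured 10.3 ± 0.334 FPKM (deficient) against 13.04 ± 1.54 FPKM (sufficient). Of 6 Treg markers 1 was called lower, the inhibitory receptor gene Ctla4, at 111 ± 11.2 FPKM (deficient) against 375 ± 102 FPKM (sufficient). Of the 6, 5 lay below every sufficient library and 1, Cd4, above, beside 17.9% below and 18.9% above of all tested genes. Treg marker sums were 961 to 969 FPKM in deficient and 1256 to 1464 FPKM in sufficient libraries, and Ctla4 had the widest gap of the 6. Macrophage markers were also present and higher in deficient libraries. All 15 of 15 lay above every sufficient library, as did 18.9% of all tested genes, and 9 were called higher. Their summed level was 405 to 768 FPKM in deficient and 29.0 to 104 FPKM in sufficient libraries. Of 9 tested NK markers 8 lay above every sufficient library and 6 were called higher. NK marker sums were 363 to 410 FPKM in deficient and 12.6 to 37.0 FPKM in sufficient libraries. The largest part of the deficient sums was the adaptor gene Fcer1g, at 265 ± 25.4 FPKM (deficient) against 4.77 ± 3.30 FPKM (sufficient). Tyrobp followed, at 51.8 ± 18.6 FPKM (deficient) against 5.73 ± 4.54 FPKM (sufficient). Prf1 had the opposite sign, at 2.02 ± 0.137 FPKM (deficient) against 2.38 ± 0.860 FPKM (sufficient), and the NK receptor gene Ncr1 was under 1 FPKM in all libraries. Of the B cell markers, 4 were tested and 1 was called higher, Ly6d, at 8.84 ± 0.550 FPKM (deficient) against 3.61 ± 0.650 FPKM (sufficient), with a limma adjusted p of 0.0236. Cd79b measured 7.65 ± 1.56 FPKM (deficient) against 12.4 ± 3.97 FPKM (sufficient), Cd79a 2.37 ± 0.0738 FPKM (deficient) against 1.62 ± 0.527 FPKM (sufficient) and Cd22 1.46 ± 0.388 FPKM (deficient) against 1.83 ± 1.41 FPKM (sufficient), while Ms4a1, Pax5, Ebf1 and Blk were under 1 FPKM in all libraries. Dendritic cell marker sums were 11.6 to 13.9 FPKM in deficient and 0.580 to 3.21 FPKM in sufficient libraries. Erythroid marker sums were 14.1 to 126 FPKM in deficient and 0.513 to 62.9 FPKM in sufficient libraries, and neutrophil marker sums 7.17 to 30.7 FPKM in deficient and 3.58 to 35.7 FPKM in sufficient libraries. Whether these transcripts came from other cells in the sort or from the Treg cells themselves was not tested. Their part in the results on the 10 genes was not tested either. In such bulk samples, fewer cells of a type and less RNA per cell cannot be told apart.

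Promoter sequences are shown for the deleted gene and for the RUNX pair, on which the results below turn. Each window runs from 250 bases before to 50 bases after an annotated start (RefSeq, GRCm38.p6) and is written 5′ to 3′ on the gene's strand. RefSeq windows were found for 9 of the 10 genes, 18 windows in all. The upstream starts of Runx3 (chr4:135120395-135120694, plus strand) and Runx1 (chr16:92826025-92826324, minus strand) each hold a pair of RUNX motifs, ACCACA, in capitals. In Bcl11b (chr12:108003365-108003664, minus strand) the capitals mark the TCF and LEF motif CTTTGA.
Runx3: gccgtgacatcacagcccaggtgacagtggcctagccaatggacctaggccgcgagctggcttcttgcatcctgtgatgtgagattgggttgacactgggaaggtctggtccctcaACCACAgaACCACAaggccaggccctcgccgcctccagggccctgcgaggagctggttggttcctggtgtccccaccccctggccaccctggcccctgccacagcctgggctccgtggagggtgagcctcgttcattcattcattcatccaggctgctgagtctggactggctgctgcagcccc
Runx1: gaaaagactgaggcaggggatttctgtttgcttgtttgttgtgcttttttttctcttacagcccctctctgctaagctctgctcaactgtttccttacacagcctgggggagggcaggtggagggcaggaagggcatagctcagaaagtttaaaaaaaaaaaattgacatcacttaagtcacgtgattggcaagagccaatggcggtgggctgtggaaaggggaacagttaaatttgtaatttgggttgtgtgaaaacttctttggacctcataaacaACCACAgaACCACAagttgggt
Bcl11b: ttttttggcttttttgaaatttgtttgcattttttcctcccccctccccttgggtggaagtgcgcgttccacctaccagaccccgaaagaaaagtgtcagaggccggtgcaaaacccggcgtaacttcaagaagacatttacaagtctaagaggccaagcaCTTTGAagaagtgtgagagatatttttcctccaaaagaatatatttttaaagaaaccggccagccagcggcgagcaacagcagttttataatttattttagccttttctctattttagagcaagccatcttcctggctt
The motifs lie in the longest run of letters that the upstream windows share, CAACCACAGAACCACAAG. Its first ACCACA begins 134 bases before the start of Runx3 and 28 bases after that of Runx1. Searched on both strands, it occurred in 4 of 32851 windows of all genes, namely those of Runx1, Runx2, Runx3 and Gm16225, whose window overlaps that of Runx3. The run was taken from the Runx1 and Runx3 windows, so its matches there and in the overlapping window were fixed in advance. A single ACCACA, a shorter string whose share cannot be set against that of the run, occurred in 16.8% of windows. Among the 10 genes it also occurred in a window of Zbtb7b. CTTTGA occurred in 16.0% of all windows, and among the 10 genes in Bcl11b, 89 bases before its start, and in Lef1. The downstream windows of Runx3 and Runx1 held no ACCACA and had a GC content of 77.3% and 69.0%, against 63.7% and 45.0% in the upstream windows. A gene-level value does not show which start was used, and a motif match is not evidence of binding.

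Between deficient and sufficient libraries, Bcl11b fell and Runx3 rose, while the other 8 genes did not pass the test. Differences were tested with limma on log2(FPKM + 1) over the 10614 genes that averaged 1 FPKM or more, with Benjamini-Hochberg adjustment over all of them and a threshold of 0.05. All 10 genes were tested, and 1 was called higher and 1 lower. Over all genes tested 2.63% were called, 1.93% higher and 0.697% lower, and Bcl11b itself is the deleted gene. The median log2 fold change of the 10 genes was 0.03, beside -0.01 over all genes. In 3 of the 10 genes both deficient libraries lay above all sufficient ones and in 3 below, a lack of overlap that 36.7% of all tested genes showed. The smallest p that the exact two-sided permutation test can give with 2 and 3 libraries is 0.1.

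**Figure D1:**
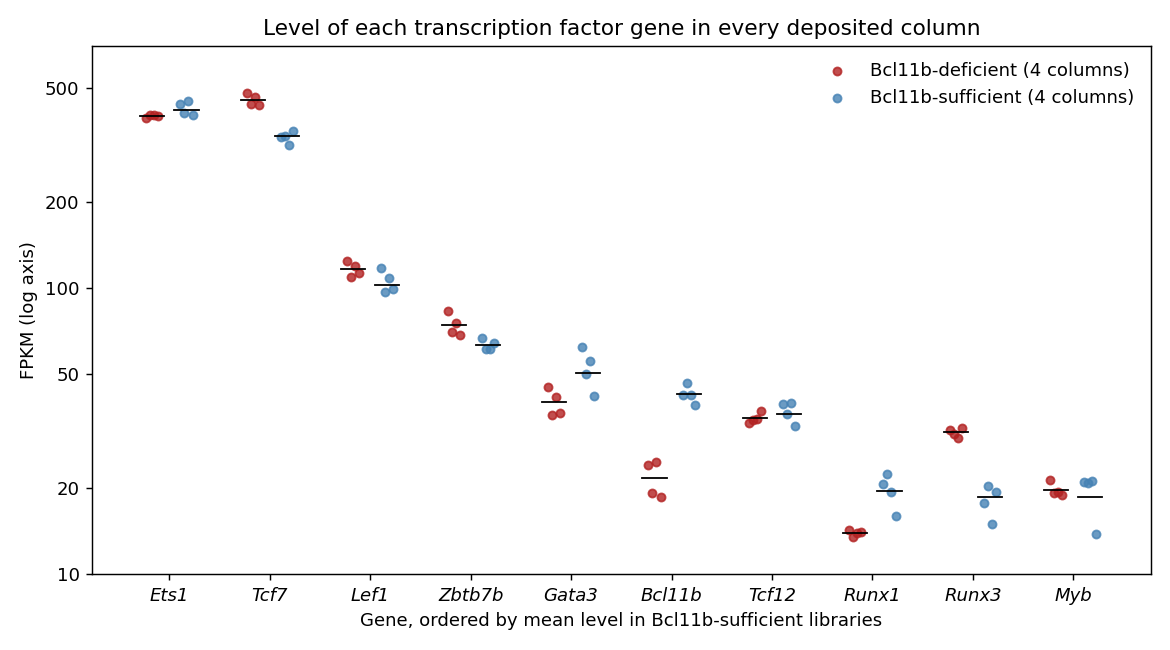
FPKM (log axis) of the 10 genes in each deposited column, with 4 columns per group as points, Bcl11b-deficient in red on the left and Bcl11b-sufficient in blue on the right of each gene, and the mean over independent libraries as a black line. Bcl11b and Runx3 show the widest gaps between the groups, at means of 21.7 against 42.7 FPKM for Bcl11b and 31.3 against 18.7 FPKM for Runx3.

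The levels spanned a wide range and kept much of their order in both groups. Tcf7, at 455 ± 25.5 FPKM (deficient) against 339.8 ± 13.4 FPKM (sufficient), and Ets1, at 399 ± 2.92 FPKM (deficient) against 418 ± 22.8 FPKM (sufficient), were the most abundant of the 10. Tcf7 ranked 123 among the tested genes by mean level in deficient and 180 in sufficient libraries. Lef1, Zbtb7b and Gata3 followed in that order in both groups. In deficient libraries the order then ran Tcf12, Runx3, Bcl11b, Myb and Runx1, and in sufficient libraries Bcl11b, Tcf12, Runx1, Runx3 and Myb. The ranges of Bcl11b and Myb overlapped in deficient libraries. In sufficient libraries those of Gata3 and Bcl11b, of Bcl11b and Tcf12, and of Runx1, Runx3 and Myb overlapped, so their order there is not resolved.

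Bcl11b (ENSMUSG00000048251.15, chromosome 12, 107910403 to 108003602, minus strand, GRCm38) was the targeted gene and checks the labels. It measured 24.2, 19.3, 24.6 and 18.7 FPKM in replicates 1 to 4 of deficient cells, against 42.4, 46.5, 42.4 and 39.1 FPKM in replicates 1 to 4 of sufficient cells. The groups did not overlap, and the mean of the deficient libraries was 50.8% of that of the sufficient ones, a log2 fold change of -0.95 (95% interval -1.28 to -0.63, limma adjusted p = 0.0238). Since the value sums over all exons, it does not measure how much functional transcript remained. The 2 deficient libraries differed from each other by more than their paired columns did, at 24.4 and 19.0 FPKM. The call was lost when sufficient replicate 2 (adjusted p = 0.0602), sufficient 1 with 3 (0.0522), deficient 1 with 3 (0.0774) or deficient 2 with 4 (0.133) was left out. It was also lost with no filter (0.0726), with equal totals (0.0815) and with scaling to the Cd3 genes (0.0919).

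Runx3 (chromosome 4, 135120652 to 135177990, plus strand), which drives the CD8 and cytotoxic programme and is also used by NK cells, rose. It measured 32.0, 30.8, 30.0 and 32.3 FPKM in replicates 1 to 4 of deficient cells, against 17.7, 20.3, 15.0 and 19.3 FPKM in replicates 1 to 4 of sufficient cells. Every deficient column lay above every sufficient one, and the deficient libraries were close together. The means were 31.3 ± 0.403 FPKM (deficient) against 18.7 ± 2.06 FPKM (sufficient), a 1.68-fold difference (log2 fold change 0.72, 95% interval 0.43 to 1.01, limma adjusted p = 0.0341). The call was lost without sufficient replicate 2 (adjusted p = 0.0592), sufficient replicate 4 (0.0715), sufficient replicates 1 and 3 (0.0655), deficient replicates 1 and 3 (0.202) or deficient replicates 2 and 4 (0.193), with the log2 fold change between 0.63 and 0.78. It was also lost with no filter (0.0814) and with scaling to the Cd3 genes (0.0510). NK and macrophage markers were higher in the same deficient libraries, and their part in the Runx3 level was not tested. Of 9 tested genes of the CD4 and CD8 lineages, which include Cd4 and cytotoxic genes, 0 were called higher and 1 lower. Over all tested genes 1.93% were called higher and 0.697% lower. Of the 9, 5 lay above and 2 below every sufficient library, beside 18.9% above and 17.9% below of all tested genes. The one called lower was Itgae, an integrin chain also typical of Treg cells. It measured 6.36 ± 2.75 FPKM (deficient) against 19.5 ± 5.51 FPKM (sufficient), with a limma adjusted p of 0.0448. At an unadjusted p under 0.05, which 17.8% of all tested genes reached, there were 5, the other 4 being higher in deficient libraries: Crtam, Gzmb, Nkg7 and Patz1. Nkg7, a cytotoxic granule gene that NK cells also express, measured 18.2 ± 4.51 FPKM (deficient) against 9.31 ± 3.04 FPKM (sufficient), with a limma adjusted p of 0.139. With the averaged libraries blocked as replicates 1 and 3 against 2 and 4, Nkg7 was called (log2 fold change 1.02, adjusted p = 0.0273).

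Runx1 (chromosome 16, 92601466 to 92826149, minus strand) works with Foxp3 in Treg cells, though not as the only RUNX factor there, and with TCF-1 and GATA3 in progenitors. Its fold change had the opposite sign to that of Runx3. It measured 14.2, 13.5, 13.9 and 14.1 FPKM in replicates 1 to 4 of deficient cells, against 20.6, 22.5, 19.4 and 16.0 FPKM in replicates 1 to 4 of sufficient cells. The groups did not overlap, but the sufficient libraries were spread, with replicate 4 nearest to the deficient ones. The log2 fold change of -0.44 (95% interval -0.80 to -0.09) did not pass (limma adjusted p = 0.193). Runx2, the remaining paralog, measured 2.68 ± 0.437 FPKM (deficient) against 2.91 ± 1.14 FPKM (sufficient), and Cbfb, the shared partner subunit of the RUNX proteins, 61.8 ± 6.83 FPKM (deficient) against 63.6 ± 4.37 FPKM (sufficient). Neither passed (limma adjusted p = 0.939 for Runx2 and 0.879 for Cbfb).

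The balance within the RUNX pair can be read as a ratio inside each library, which does not depend on how libraries were scaled. Runx3 over Runx1 was 2.20 and 2.29 in the deficient libraries and 0.818, 0.905 and 1.21 in the sufficient libraries. Runx3 was thus above Runx1 in both deficient libraries, whereas the sufficient libraries lay on either side of equality. The exact two-sided permutation p was 0.1, the smallest the design allows, and 0.133 after adjustment over the 4 ratios computed. Zbtb7b over Runx3, the pair of the CD4 and CD8 choice, was 2.55 and 2.19 in the deficient libraries and 3.91, 3.004 and 3.32 in the sufficient libraries (exact permutation p = 0.1). Zbtb7b thus stayed above Runx3 in every library, by a smaller margin in deficient ones. These ratios were chosen after the values had been seen.

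**Figure D2:**
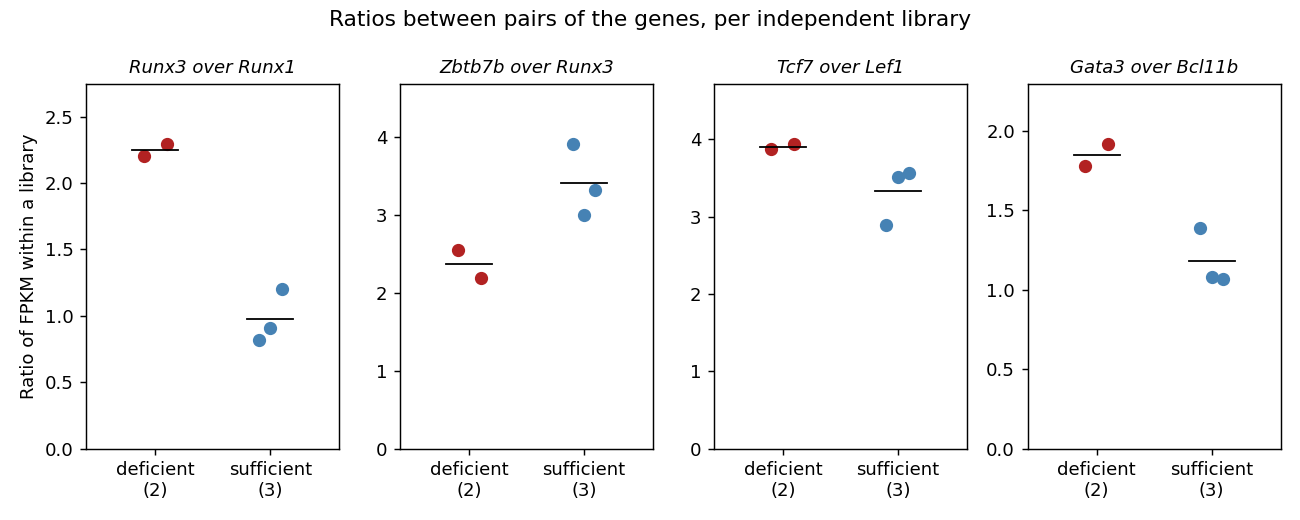
Ratio of FPKM between 2 genes within each independent library (vertical axes from 0), with the 2 Bcl11b-deficient libraries left and the 3 Bcl11b-sufficient libraries right and their mean as a black line. Runx3 over Runx1 sits at 2.20 and 2.29 in deficient and at 0.818 to 1.21 in sufficient libraries, and every ratio but Zbtb7b over Runx3 is higher in the deficient libraries.

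Tcf7 (chromosome 11, 52252371 to 52283014, minus strand), which encodes TCF-1, was high in all libraries. It measured 479.5, 437, 466 and 436 FPKM in replicates 1 to 4 of deficient cells, against 338, 340.3, 315 and 353 FPKM in replicates 1 to 4 of sufficient cells. The groups did not overlap, and the ratio of means was 1.34. The log2 fold change of 0.42 (95% interval 0.15 to 0.68) did not pass (limma adjusted p = 0.123). It did pass with libraries scaled to equal totals (log2 fold change 0.63, adjusted p = 0.0324), a scaling that shifted the median over all genes to 0.18, and with quantile normalization (0.60, adjusted p = 0.0339).

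Lef1 (chromosome 3, 131110471 to 131224356, plus strand), the paralog of Tcf7 with the same kind of DNA-binding domain, measured 125, 109.6, 119.7 and 112 FPKM in replicates 1 to 4 of deficient cells, against 117, 96.8, 108 and 98.9 FPKM in replicates 1 to 4 of sufficient cells. The groups overlapped (log2 fold change 0.18, 95% interval -0.09 to 0.45, limma adjusted p = 0.456). Tcf7 over Lef1 was 3.87 and 3.93 in the deficient libraries and 2.90, 3.52 and 3.57 in the sufficient libraries (exact permutation p = 0.2). The other paralogs, Tcf7l1 and Tcf7l2, had means below the filter of 1 FPKM, at 0.169 to 1.26 FPKM for Tcf7l1 and 0.343 to 0.848 FPKM for Tcf7l2 over the 5 libraries.

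Zbtb7b (chromosome 3, 89377644 to 89394776, minus strand), which encodes the CD4 lineage factor ThPOK, measured 83.3, 70.2, 75.2 and 68.3 FPKM in replicates 1 to 4 of deficient cells, against 66.8, 61.1, 61.1 and 64.2 FPKM in replicates 1 to 4 of sufficient cells. The groups did not overlap, but the gap between the nearest columns was small beside the spread of the deficient ones, and the difference did not pass (log2 fold change 0.23, 95% interval -0.02 to 0.47, limma adjusted p = 0.318). Gm15417, annotated on the opposite strand across the start of Zbtb7b and singled out after values were known, reached 6.37 and 5.53 FPKM across the deficient, against 2.47, 1.54 and 2.49 FPKM across the sufficient libraries. The sources used here do not say whether reads were counted by strand, so reads of the pair cannot be told apart. Cd4 measured 292 ± 4.33 FPKM (deficient) against 260.1 ± 15.9 FPKM (sufficient), with a limma adjusted p of 0.476.

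Gata3 (chromosome 2, 9857078 to 9890034, minus strand), needed for T cell commitment and later for type 2 helper cells and Treg cells, measured 45.2, 36.0, 41.6 and 36.6 FPKM in replicates 1 to 4 of deficient cells, against 61.9, 50.2, 55.7 and 41.8 FPKM in replicates 1 to 4 of sufficient cells. Sufficient replicate 4 lay within the range of the deficient libraries, and the log2 fold change of -0.32 (95% interval -0.70 to 0.06) did not pass (limma adjusted p = 0.353). Gata3 over Bcl11b was 1.78 and 1.91 in the deficient libraries and 1.39, 1.08 and 1.07 in the sufficient libraries. The exact permutation p was 0.1, and 0.133 after adjustment over the ratios computed. Bcl11b is the deleted gene, so a higher ratio follows from its own fall and is no separate result on Gata3. Of the GATA paralogs, Gata1, an erythroid and megakaryocyte factor, fell. It measured 2.20 and 3.22 FPKM across the deficient, against 9.70, 7.50 and 10.3 FPKM across the sufficient libraries (log2 fold change -1.46, SE 0.19, limma adjusted p = 0.0172). The erythroid marker sums given above overlapped between the groups. Gata2 was at most 0.397 FPKM in any library.

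Ets1, Tcf12 and Myb showed small differences with intervals on both sides of 0. Ets1 (chromosome 9, 32636221 to 32757820, plus strand) measured 392, 403, 402 and 399.6 FPKM in replicates 1 to 4 of deficient cells, against 438, 408, 450.2 and 402 FPKM in replicates 1 to 4 of sufficient cells (log2 fold change -0.06, 95% interval -0.33 to 0.20, limma adjusted p = 0.809). After averaging, both deficient libraries of Ets1 lay just below the lowest sufficient one. The sign for Ets1 turned with equal totals (0.15), with quantile normalization (0.14) and with scaling to the Cd3 genes (0.04). Tcf12 (chromosome 9, 71842688 to 72111871, minus strand) measured 33.7, 34.6, 34.9 and 37.0 FPKM in replicates 1 to 4 of deficient cells, against 39.4, 36.4, 39.7 and 33.0 FPKM in replicates 1 to 4 of sufficient cells (log2 fold change -0.04, 95% interval -0.31 to 0.22, limma adjusted p = 0.874). Myb (chromosome 10, 21124935 to 21160984, minus strand) measured 21.4, 19.2, 19.3 and 19.0 FPKM in replicates 1 to 4 of deficient cells, against 20.9, 20.8, 21.2 and 13.9 FPKM in replicates 1 to 4 of sufficient cells (log2 fold change 0.10, 95% interval -0.33 to 0.54, limma adjusted p = 0.814). For Myb, sufficient replicate 4 alone was low, and without it the log2 fold change was -0.08. The sign for Tcf12 turned with equal totals (0.16), with scaling to the Cd3 genes (0.05) and without sufficient replicates 1 and 3 (0.02). The intervals of these 3 genes limit the size of a difference and do not show equal levels.

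**Figure D3:**
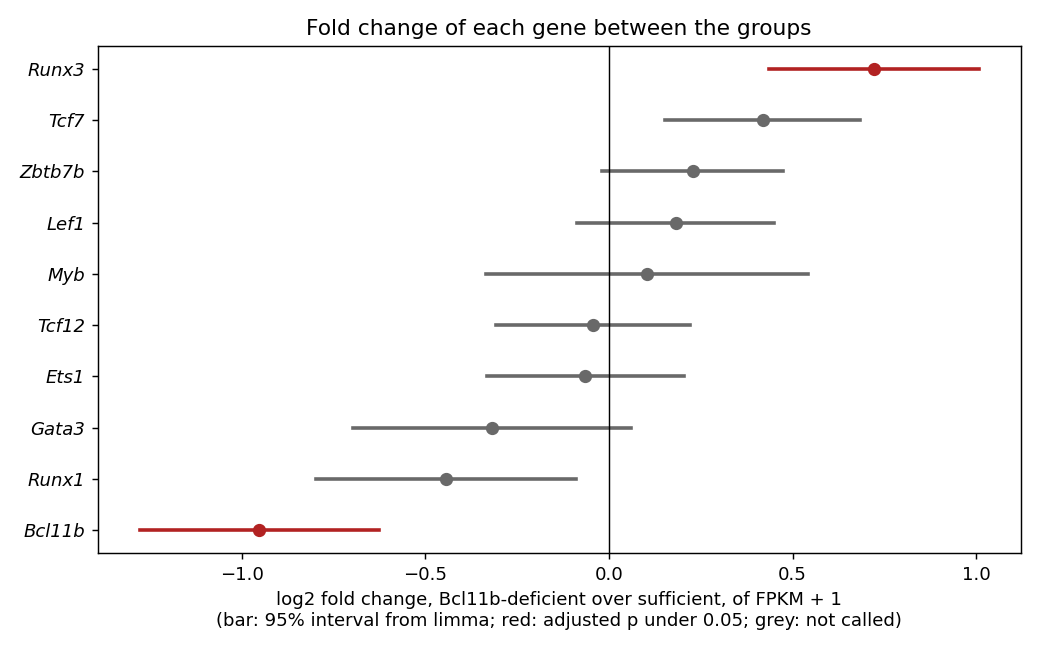
log2 fold change of FPKM + 1 (horizontal axis), Bcl11b-deficient over Bcl11b-sufficient, for the 10 genes, with 95% intervals from limma as bars; red marks an adjusted p under 0.05 and grey the rest. Bcl11b lies at -0.95 and Runx3 at 0.72, and the intervals of 6 of the other genes include 0.

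Among the other paralogs of the 10 genes, Tcf3, the E protein related to Tcf12, measured 33.5 ± 6.23 FPKM (deficient) against 35.2 ± 3.26 FPKM (sufficient), and Ets2 24.3 ± 7.78 FPKM (deficient) against 34.3 ± 9.12 FPKM (sufficient). Zbtb7a measured 18.2 ± 3.36 FPKM (deficient) against 17.4 ± 0.383 FPKM (sufficient), Mybl2 4.03 ± 0.0110 FPKM (deficient) against 3.62 ± 0.885 FPKM (sufficient), and Tcf4 1.77 ± 0.595 FPKM (deficient) against 0.932 ± 0.141 FPKM (sufficient). None of these passed limma's test (adjusted p = 0.292 to 0.872). Bcl11a, the paralog of Bcl11b used by B cells and progenitors, was at 0.656 and 0.520 FPKM across the deficient, against 0.0617, 0.311 and 0.166 FPKM across the sufficient libraries, below the filter. In all, 7 of the 12 paralogs passed the filter, with 0 called higher and 1, Gata1, lower.

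Of 20 other transcription factors of the T lineage, 1 was called higher and 0 lower, and the median log2 fold change was 0.02. Elf4, an ETS family factor that restrains CD8 T cell proliferation in mice, rose to 94.9 ± 0.928 FPKM in deficient libraries, against 59.6 ± 5.59 FPKM in sufficient libraries (log2 fold change 0.67, SE 0.11, limma adjusted p = 0.0341). Gfi1, a repressor, measured 13.9 ± 1.37 FPKM (deficient) against 19.9 ± 1.87 FPKM (sufficient), with a limma adjusted p of 0.104. Sox4, an HMG box factor like TCF-1, measured 12.3 ± 3.48 FPKM (deficient) against 5.57 ± 2.04 FPKM (sufficient), with a limma adjusted p of 0.138. Ikzf1, which encodes Ikaros, measured 153 ± 7.61 FPKM (deficient) against 119 ± 11.5 FPKM (sufficient), with a limma adjusted p of 0.179. Of 17 cofactors of the 10 genes limma called 0 in either direction, 3 had an unadjusted p under 0.05, and 6 lay above and 0 below every sufficient library, where 18.9% of all tested genes lay above and 17.9% below. Among them were Ep300, a histone acetyltransferase, at 44.5 ± 3.30 FPKM (deficient) against 32.3 ± 4.33 FPKM (sufficient), and Chd4, a remodeller in the NuRD complex that binds Bcl11b, at 146 ± 5.21 FPKM (deficient) against 117 ± 11.4 FPKM (sufficient) (limma adjusted p = 0.152 for Ep300 and 0.22 for Chd4). Ctnnb1, the beta-catenin partner of TCF-1 and LEF-1, measured 101 ± 11.1 FPKM (deficient) against 81.5 ± 5.90 FPKM (sufficient), with a limma adjusted p of 0.252.

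Of the 24 genes on the list of progenitor and other lineage factors 23 were in the table and 12 passed the filter, and 11 were under 1 FPKM in every library, among them Mef2c, Hhex, Meis1, Tal1 and Zbtb16, which encodes the innate-like factor PLZF. Of the 12 tested, 1 was called higher and 0 lower, and the median log2 fold change was 0.46. The one called was Kit, the receptor of stem cell factor on early progenitors and innate cells rather than a transcription factor, at 5.92 and 6.01 FPKM across the deficient, against 2.70, 2.29 and 1.55 FPKM across the sufficient libraries (log2 fold change 1.15, SE 0.19, limma adjusted p = 0.0347). Lyl1, a progenitor factor, measured 6.49 ± 0.0727 FPKM (deficient) against 2.71 ± 1.23 FPKM (sufficient), with a limma adjusted p of 0.092, and Spi1, the myeloid factor PU.1, 2.29 ± 0.661 FPKM (deficient) against 0.837 ± 0.695 FPKM (sufficient), with a limma adjusted p of 0.262. Nfil3, a factor of NK and other innate lymphoid cells, had the most negative fold change of the list, at 11.7 ± 3.16 FPKM (deficient) against 37.8 ± 16.6 FPKM (sufficient), with a limma adjusted p of 0.0791. Macrophage markers were higher in the same deficient libraries, and their part in these levels was not tested. Id2, which inhibits E proteins such as the product of Tcf12, measured 69.0 ± 1.30 FPKM (deficient) against 49.98 ± 16.6 FPKM (sufficient), with a limma adjusted p of 0.357.

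Of 19 T cell identity genes limma called 0 in either direction, and the median log2 fold change was -0.17. Of the 19, 3 lay above and 10 below every sufficient library, beside 18.9% above and 17.9% below of all tested genes. At an unadjusted p under 0.05 there were 8, of which 2 were higher and 6 lower, beside 17.8% of all tested genes. Lat, an adaptor of the T cell receptor, measured 342 ± 38.3 FPKM (deficient) against 479.9 ± 44.8 FPKM (sufficient), with a limma adjusted p of 0.135, and Trat1, a receptor-associated protein, 37.7 ± 4.16 FPKM (deficient) against 60.1 ± 12.8 FPKM (sufficient), with a limma adjusted p of 0.141. Cd5 measured 279 ± 11.6 FPKM (deficient) against 362 ± 22.9 FPKM (sufficient), with a limma adjusted p of 0.16, and Themis, a regulator of thymocyte selection, 23.0 ± 1.73 FPKM (deficient) against 14.1 ± 2.34 FPKM (sufficient), with a limma adjusted p of 0.0711. The 16 naive T cell genes associated with TCF-1 and LEF-1 split, 3 being called higher and 1 lower around a median of 0.16, beside 1.93% called higher and 0.697% lower of all tested genes. Pde3b, a phosphodiesterase, measured 13.1 and 15.2 FPKM across the deficient, against 3.64, 4.60 and 2.82 FPKM across the sufficient libraries, and Dapl1, a gene of naive T cells, 54.3 and 66.4 FPKM across the deficient, against 16.6, 18.6 and 25.4 FPKM across the sufficient libraries. Both rose, by a log2 fold change of 1.71 for Pde3b and 1.55 for Dapl1 (limma adjusted p = 0.00982 for Pde3b and 0.0138 for Dapl1). Slamf6, a SLAM family receptor, rose to 89.3 ± 1.498 FPKM in deficient libraries, against 61.0 ± 1.64 FPKM in sufficient libraries (log2 fold change 0.54, limma adjusted p = 0.0357). Ccr7, the lymph node homing receptor, fell to 144 ± 0.228 FPKM in deficient libraries, against 262 ± 49.2 FPKM in sufficient libraries (log2 fold change -0.84, limma adjusted p = 0.0464). With the averaged libraries blocked as replicates 1 and 3 against 2 and 4, Slamf6 (adjusted p = 0.0713) and Ccr7 (0.0525) were no longer called. Earlier results of these data on Pde3b and Dapl1 were known when this list was written. The calls of these other genes were also sensitive to single libraries. With each of the 5 independent libraries left out in turn, Gata1 and Pde3b were called 3 times, Dapl1 2 times, Kit and Ccr7 1 time, and Elf4, Slamf6 and Itgae 0 times, while each kept the sign of its fold change. Every one of them missed the threshold when either deficient library was left out, where the lone remaining one is assumed to vary like the sufficient ones (limma adjusted p up to 0.257).

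**Figure D4:**
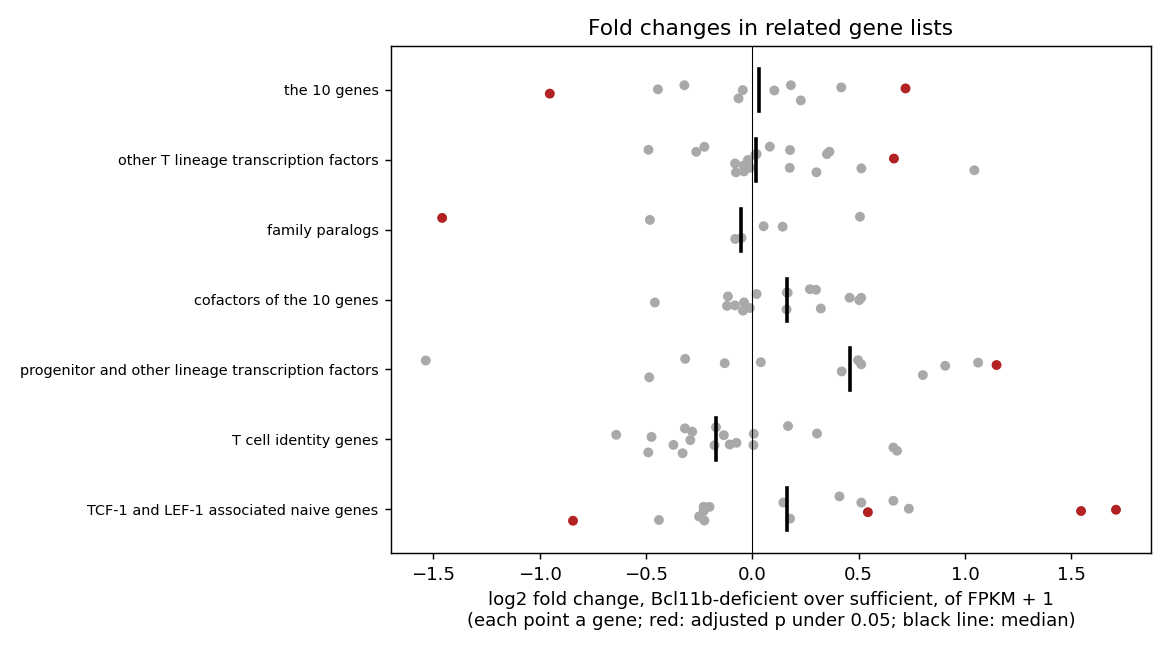
log2 fold change of FPKM + 1 (horizontal axis), Bcl11b-deficient over Bcl11b-sufficient, for each tested gene of 7 lists from top to bottom, the 10 genes first, with calls in red and each list's median as a black line. The medians run from -0.17 for T cell identity genes to 0.46 for progenitor and other lineage factors, and the calls lie on both sides of 0.

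Genes with the pattern most like that of 3 of the factors were sought by the root mean square difference of log2(FPKM + 1), after centring each gene on its mean over the 5 libraries. Nearest to Bcl11b were Map6, Ptger4, Klf9, Eva1b and Mgmt, at differences of 0.09 to 0.10. Ptger4, a prostaglandin E2 receptor, measured 18.0 and 16.3 FPKM across the deficient, against 34.4, 34.2 and 28.3 FPKM across the sufficient libraries. Nearest to Tcf7 were Stat2, Maml2, Irf7, Zyx and Diap2, at 0.03 to 0.04. Irf7, an interferon response factor, measured 107 and 96.1 FPKM across the deficient, against 69.5, 71.9 and 74.2 FPKM across the sufficient libraries. Nearest to Lef1 were Prickle3, Ccdc84, Prune, Kdm3a and Thap1, at 0.01 to 0.02. The likeness is over 5 libraries in 2 groups and is a description only.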

How the data were processed

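RNA from sorted CD4+YFP+ Treg cells (purity above 97%, per the labels) was sequenced as stranded total RNA with 15 PCR cycles on HiSeq or MiSeq instruments, and the labels do not say which library ran on which. The mm10 build, STAR 2.5.1 and the Cuffnorm and Cuffdiff tools (both 2.2.1) appear in the submitters' processing notes, beside cutadapt 1.12, Trim Galore 0.4.2 and FastQC. The authors deposited 1 table of FPKM values, with 16 value columns. Of these, 8 carry the name of a sample and were used, and 8 match no sample and were not used. FPKM values are not counts, so no count model was applied, and relative depth was read from the step size of low values.

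Columns were compared over genes with 1 annotated transcript and 150 to 500 reads, and pairs within 1.5 times the sampling noise were averaged, which left 5 independent libraries. Genes averaging 1 FPKM or more were tested on log2(FPKM + 1) by limma (version 3.58.1, R version 4.3.3, trend of variance on mean), with Benjamini-Hochberg adjustment over all 10614 genes and a threshold of 0.05. The pseudocount of 1 understates changes of low genes. The test script was checked on simulated data. Exact two-sided permutation tests used the 10 assignments of 2 and 3 libraries. Gene positions are from GENCODE M21 (GRCm38), in which 22694 of the 23997 symbols were found, and promoters from RefSeq. Of each other list, the genes called and up to 4 with the lowest adjusted p were named, with the tested paralogs and the 5 nearest patterns to each of Bcl11b, Tcf7 and Lef1. Cbfb, Cd4, Patz1, Klf2, the cell type markers and untested genes were added after their values were seen. The 10 genes and all lists were chosen with earlier results of these data known. Alternatives covered the columns kept separate, replicate blocks, pseudocount, filter, scaling and each library left out. The summed level of the B cell markers is not reported here.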

Additional observations from a re-analysis of the deposited data

How the results depend on the processing

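Over the 22 settings tried, Bcl11b kept a negative log2 fold change (-1.13 to -0.75) and Runx3 a positive one (0.63 to 0.93), and each was called in 15 settings. The settings include single columns dropped from averaged pairs and columns kept separate, so their count overstates how stable the calls are. With an independent sufficient library left out, Runx3 lost its call each time, and Bcl11b kept it only without sufficient replicate 4. Limma called 279 genes, against 1851 with the 8 columns kept separate, 182 with a pseudocount of 0.1, 99 with no filter, 113 with a filter of 5 FPKM and 8 to 297 with a column or an independent library left out. The range was 8 to 167 for the 5 independent libraries (8 without deficient 2 and 4, 16 without deficient 1 and 3, 80 without sufficient 2, 133 without sufficient 4, 167 without sufficient 1 and 3). Of the 10 genes it called 2, against 4 with the columns separate, 0 with no filter (5 at an unadjusted p under 0.05), 0 with scaling to the Cd3 genes (3 at an unadjusted p under 0.05) and 0 to 2 with a column or library left out (0 to 1 for the 5 independent libraries). At an unadjusted p under 0.05 the main fit had 4 of the 10 genes, beside 17.8% of all tested genes. With no filter 2588 of all 17114 tested genes reached that level, and with scaling to the Cd3 genes 1377 of 10623. Averaging columns by depth, an alternative chosen after seeing the data, gave 296 genes. The cause of these differences was not tested, except that keeping the columns separate counts pairs that differ by 0.989 to 1.21 times the sampling noise as replicates.

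Replicates of the same number correlated at 0.0275, 0.0581, 0.126 and 0.0906 in their deviations, each positive. Pairs of unlike number ran from -0.108 to 0.130. These weak correlations do not settle whether the numbers pair the samples, and the main test used no pairing. Some genes, picked after values were seen, split replicates 1 and 3 from 2 and 4 in both groups. Klf2 measured 206, 96.2, 194 and 95.2 FPKM in deficient replicates 1 to 4. In sufficient replicates 1 to 4 it measured 272, 128, 264 and 123 FPKM. Erythroid marker sums were 14.1 FPKM in deficient 1 with 3 and 126 FPKM in 2 with 4. In sufficient 1 with 3, 2 and 4 they were 0.513, 62.9 and 11.3 FPKM. The cause of this split was not tested. With the columns separate and a replicate block 1418 genes and 5 of the 10 were called. With the averaged libraries and a block of replicates 1 and 3 against 2 and 4 the counts were 283 genes and 2 of the 10.

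Signs turned for Ets1 (0.15 with equal totals, 0.14 with quantile normalization, 0.037 with Cd3 scaling), Tcf12 (0.16 with equal totals, 0.054 with Cd3 scaling), Tcf3 (0.13 with equal totals, 0.018 with Cd3 scaling) and Runx2 (0.027 with the columns separate, with or without the replicate block, 0.10 with equal totals, 0.020 with Cd3 scaling). With a column or library left out, log2 fold changes ran from -0.11 to 0.017 for Tcf12, -0.084 to 0.20 for Myb, -0.015 to 0.27 for Mybl2, -0.20 to 0.18 for Runx2, -0.27 to 0.10 for Tcf3 and -0.13 to 0.23 for Zbtb7a.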
